A study of Mus musculus with 5 samples.

Results

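The genes described here are 10 transcription factor genes best known from the somites, the body wall and the organs and vessels of the trunk. They are the forkhead genes Foxc1, Foxc2 and Foxf1a, the zinc finger genes Gata4 and Gata6, the homeobox genes Meox1 and Meox2, the basic helix-loop-helix gene Tcf15, and the orphan nuclear receptor genes Nr2f1 and Nr2f2. They were chosen by name, and all 10 were among the 23284 gene symbols of every count table. RNA was measured in mouse forelimb buds, in 1 library of CD1 forelimb bud at E10.5 (embryonic days, counted from the vaginal plug) and 4 libraries of the distal forelimb at E11.5. The E11.5 embryos had a mixed C57BL/6 and CD1 background, and were either wild type (2 libraries) or Hoxa13-/-;Hoxd13-/- (2 libraries, called mutant here). The mutant carries a neomycin cassette inserted in the Hoxa13 coding region and lacZ inserted in the first Hoxd13 exon, both present throughout the embryo and not only in limb mesenchyme. Each E11.5 library came from a separate tissue pool. The protocols describe micro-dissected distal tissue at E11.5 only, and the E10.5 label names a forelimb bud, so stage, dissected part and strain label cannot be told apart between the stages.

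A limb bud grows out of the lateral plate mesoderm of the flank, and somites beside it send in muscle precursors and contribute vessel cells. Forkhead factors of the FOXC class act in somites, in mesenchyme and in blood and lymph vessels, and Foxf1 acts in the lateral plate and visceral mesoderm. GATA4 and GATA6 are factors of heart, gut and lateral plate, and Gata6 is also known in limb buds as a repressor of Shh, the signal of the posterior margin. MEOX1 and MEOX2 pattern somites, and Meox2 is active in limb muscle precursors as well. Tcf15 (paraxis) is needed for epithelial somites. NR2F1 and NR2F2 (COUP-TFI and COUP-TFII) bind DNA sites that overlap those of retinoid receptors, and Nr2f2 sets vein identity. HOXA13 and HOXD13 are homeodomain factors that act in the future hand plate.

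Reads counted in genes numbered 45115494 to 84172202 per library. The targeted Hoxd13 had a level of 47.7 and 40 CPM (counts per 1000000 reads in genes) in the mutant libraries, against 247 and 246 in wild type, and a log2 fold change of -2.50 (SE 0.10, edgeR adjusted p = 1.12e-07). Hoxa13 reads remained (48 and 39.8 CPM in mutant, 50.8 and 47.2 in wild type), and reads outside an inserted cassette can remain, so Hoxa13 checks no label. Of 10 defining limb mesenchyme genes, all were counted, and their summed level was 1644 CPM at E10.5 and 1910 to 2075 CPM in the E11.5 libraries. In that limb mesenchyme list 1 gene rose and 6 fell in the mutant, with a median log2 fold change of -0.41, and without mutant replicate 2 the number fallen was 2. Over all genes tested, 3.82% rose and 3.34% fell. Msx1 (-0.84) and Fgf10 (-0.68), a homeobox gene and an outgrowth signal, fell, and the mesenchymal homeobox gene Prrx1 rose (0.49).

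In the mutant distal limb at E11.5, Gata6 and Nr2f2 rose and Foxc2 fell, though the Foxc2 call held in only 5 of 10 alternative fits. Gata6 was 4.25-fold higher and Nr2f2 1.44-fold higher in the mutant, and Foxc2 was 2.29-fold lower. The other 6 tested genes did not pass the test, and Gata4 had too few reads to be tested. So 2 of 9 tested genes rose, beside 3.82% of all 16166 genes tested, and 1 of 9 fell, beside 3.34%. In either direction the background was 7.16%. The test was edgeR's quasi-likelihood test with Benjamini-Hochberg adjustment over all 16166 genes, at an adjusted p below 0.05. At an unadjusted p below 0.05, 4 rose, Foxf1a among them, and 2 fell. The share of all genes at that cut was not taken, so these counts have nothing to be set beside. The median log2 fold change of the 9 was 0.34, beside -0.00 over all genes tested. That median includes Foxf1a, which passed the filter on low counts through the mutant libraries, and it was 0.21 over the other 8. In bulk tissue, more cells of a type and more RNA per cell cannot be told apart.

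**Figure D1:**
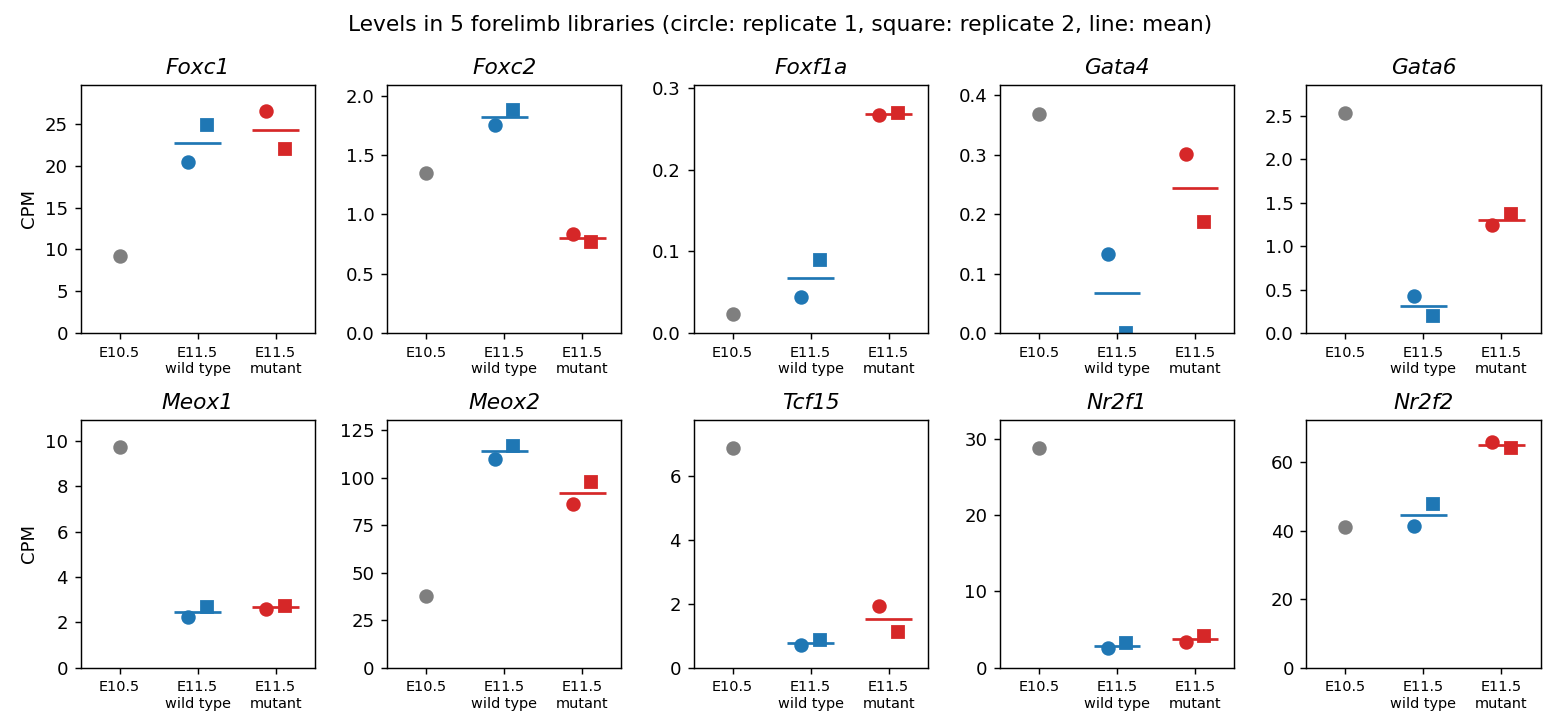
Level of each of the 10 genes in CPM (vertical axes, each from 0 and scaled to its gene) in the E10.5 library (grey), the 2 wild-type (blue) and the 2 mutant (red) E11.5 libraries. Circles are replicate 1, squares replicate 2 and lines the mean of 2. Gata6 lies at 1.24 and 1.37 in the mutant, at 0.421 and 0.197 in wild type and at 2.53 at E10.5. Gata6, Gata4, Nr2f1, Tcf15 and Meox1 have their highest point at E10.5.

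Among the GATA genes, Gata6 measured 1.24 and 1.37 CPM in the mutant libraries, 0.421 and 0.197 in the wild-type libraries (replicate 1 first, as throughout), and 2.53 at E10.5. Both mutant libraries lay above both wild-type libraries and below the E10.5 library. The mean was 1.30 ± 0.0917 CPM (SD, n = 2) in the mutant against 0.309 ± 0.159 in wild type, resting on 140 and 30 reads. The log2 fold change was 2.09 (SE 0.41, edgeR adjusted p = 0.00914), and it ranged from 1.63 without wild-type replicate 2 to 2.67 without wild-type replicate 1. Gata6 was past the threshold in all 10 alternative fits. One noncoding gene on the opposite strand shares 93 of its 6508 exon bases.

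Gata4, the relative of Gata6 that works with it in the heart, had 18 and 9 reads in the mutant libraries, 6 and 0 in wild type, and 31 at E10.5. The mutant libraries lay above the wild-type libraries, at 0.301 and 0.186 CPM against 0.133 and 0. Pooled over each genotype, the reads gave a ratio of 4.20 (exact 95% interval 1.70 to 12.44), which covers counting error only and not the spread between pools. The gene did not pass the filter, so it has no fitted value there. With no filter the edgeR adjusted p was 0.259, and with all 5 libraries in the fit it was 0.287. With 1 library left out it was 0.258 (mutant replicate 2), 0.636 (wild-type replicate 2) and 0.0440 (wild-type replicate 1), the last against a wild-type group with 0 Gata4 reads, so that the gene entered through its mutant reads. None of 7 other GATA-type factors and their FOG cofactors passed the edgeR test in either direction (0 risen, 0 fallen, median log2 fold change 0.21). At an unadjusted p below 0.05 there were 2 risen and 0 fallen, and DESeq2 called 0. The median was -0.08 without mutant replicate 1 and -0.35 without wild-type replicate 2, where 1 gene rose.

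Shh, which GATA6 is known to repress, was also higher in the mutant. It measured 7.44 and 5.61 CPM in the mutant libraries, 1.66 and 1.86 in wild type and 6.83 at E10.5, and its log2 fold change was 1.87 with an SE of 0.22 (edgeR adjusted p = 0.000284). Among 13 hedgehog pathway genes 4 rose and 0 fell (DESeq2 4 and 0, unadjusted 5 and 0), with a median of 0.28. Beside these edgeR counts, 3.82% of all genes tested rose and 3.34% fell, and the unadjusted share was not taken. Without wild-type replicate 1, 7 rose and the median was 0.56, and without wild-type replicate 2 the median was 0.08. Gli3, the repressor that restrains the pathway (0.77), and Grem1, a BMP antagonist of the same loop (0.72), were the others of smallest adjusted p. Gata6 and Shh thus both lay higher in the mutant pools. Whether they were high in the same cells was not tested, because each library is a tissue pool.

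Of the forkhead genes, Foxc2 measured 0.836 and 0.766 CPM in the mutant libraries, 1.75 and 1.88 in wild type and 1.35 at E10.5. Both mutant libraries lay below the other 3. The mean was 0.801 ± 0.0492 CPM (SD, n = 2) in the mutant against 1.82 ± 0.0914 in wild type, from 87 and 184 reads. The log2 fold change was -1.19 (SE 0.29, edgeR adjusted p = 0.0297). The call held in 5 of 10 alternative fits. It ended with DESeq2 (adjusted p = 0.0633) and with replicate number as a block, a pairing that no label gives (edgeR adjusted p = 0.0516). It also ended without mutant replicate 1, mutant replicate 2 or wild-type replicate 2. The fold change itself stayed between -1.27 and -1.11 with any 1 library left out.

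Foxc1, the closest relative of Foxc2, measured 26.6 and 22.0 CPM in the mutant libraries and 20.5 and 24.9 in wild type. The groups overlapped, and the log2 fold change was 0.08 (SE 0.14, edgeR adjusted p = 0.823), below 0 without mutant replicate 1 (-0.07) or wild-type replicate 1 (-0.08). Per kilobase of exon, Foxc2 made up 6.31% and 6.94% of the summed Foxc1 and Foxc2 level in the mutant libraries. It made up 15.5% and 13.9% in wild type and 24.0% at E10.5. The difference between the fold changes of both genes was not tested.

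Foxf1a (current symbol Foxf1), the gene of the lateral plate and gut mesoderm, was close to the detection limit. It had 16 and 13 reads in the mutant libraries, 2 and 5 in wild type and 2 at E10.5. The mutant libraries (0.267 and 0.269 CPM) lay above the wild-type libraries (0.0443 and 0.0895 CPM). The fitted log2 fold change was 1.91 (SE 0.68, edgeR adjusted p = 0.132), short of the threshold. The ratio of pooled reads was 3.87 (exact 95% interval 1.66 to 10.46), which covers counting error only and not the spread between pools. Foxf1a passed the filter on low counts through the mutant libraries, where it is high.

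Foxf1a and Foxc2 are neighbours on mouse chromosome 8, with Mthfsd between them and the forkhead gene Foxl1 beyond Foxc2. In the order along the chromosome the log2 fold changes were 1.91, -0.05 (Mthfsd, adjusted p = 0.860), -1.19 and -0.05 (Foxl1, adjusted p = 0.964). Foxl1 and Mthfsd are given for their position and were chosen after their values were seen. Of the other 41 forkhead genes 25 were tested, and 1 rose and 1 fell, with a median of 0.01. The shares over all genes tested were 3.82% risen and 3.34% fallen. Foxs1 had 32 reads in the mutant libraries and 0 in wild type, at least 9.96-fold higher when 3 reads over the wild-type group are taken as the floor (edgeR adjusted p = 0.0109; DESeq2 gave none). It passed the filter on low counts through the mutant libraries where it is high, so its count as risen supports nothing. The gene that fell was Foxp1 (-0.43), with an adjusted p of 0.0848 without mutant replicate 1 and 0.117 without mutant replicate 2. Of these forkhead genes 2 rose and 1 fell when wild-type replicate 1 was left out, 1 rose and 2 fell when wild-type replicate 2 was, and 0 rose and 0 fell when mutant replicate 2 was.

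Nr2f2 and Nr2f1 differed in level and in what the test found. Nr2f2 measured 65.9 and 64.3 CPM in the mutant libraries, 41.3 and 47.9 in wild type and 41.2 at E10.5. The mutant libraries were the highest of the 5. Means were 65.1 ± 1.13 CPM (SD, n = 2) in the mutant against 44.6 ± 4.67 in wild type, and the log2 fold change was 0.53 (SE 0.11, edgeR adjusted p = 0.00983). It was past the threshold in all 10 alternative fits and ranged from 0.40 without wild-type replicate 1 to 0.67 without wild-type replicate 2.

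The noncoding gene B130024G19Rik lies on the opposite strand of Nr2f2 and shares 643 of its 8625 exon bases. It moved with Nr2f2, from 4.68 and 5.98 CPM in wild type to 11.1 and 12.1 in the mutant (log2 fold change 1.10, SE 0.17, adjusted p = 0.00174), against 1.63 at E10.5. The library kit marks strand, but how HTSeq was set to treat it is not known, so reads of both genes may not have been fully separated and both values are uncertain to that extent. Whether such reads had a part in the Nr2f2 rise was not tested. B130024G19Rik was chosen after its value was seen.

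The 250 bases before the Nr2f2 start are shown because both genes meet there: all 250 also lie in an annotated exon of B130024G19Rik. The sequence is RefSeq's, from build GRCm38.p6, chr7:70366747-70366996, minus strand, written 5′ to 3′ toward the Nr2f2 start, with nothing in capitals.
Nr2f2: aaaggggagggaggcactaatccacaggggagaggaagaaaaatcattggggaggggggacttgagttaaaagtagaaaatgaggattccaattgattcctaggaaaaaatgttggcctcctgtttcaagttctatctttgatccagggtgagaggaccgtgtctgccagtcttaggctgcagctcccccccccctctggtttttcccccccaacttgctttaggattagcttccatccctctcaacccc
The letters CAATAAA, a core that HOX13 proteins prefer, were searched on both strands in the window of 250 bases before and 50 after the start. There were 0 matches for Nr2f2, and 0 in the 4 windows held for Meox2, Foxc1 and Nr2f1. Windows of the other genes described here, Gata6 and Foxc2 among them, were not looked at one by one. Of 32851 such windows of all genes, 4.60% held a match.

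Nr2f1 measured 3.41 and 4.12 CPM in the mutant libraries and 2.57 and 3.26 in wild type. The groups did not overlap, but by a narrow margin, and the log2 fold change was 0.34 (SE 0.22, edgeR adjusted p = 0.458). A noncoding gene on its opposite strand, A830082K12Rik, shares 123 of its 5093 exon bases and had 0.35 (adjusted p = 0.536). Of 10 other nuclear receptors of the same class 9 were tested, with 0 risen and 0 fallen by the edgeR test and by DESeq2, 1 and 0 at an unadjusted p below 0.05, and a median of 0.09.

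The somite genes Meox1, Meox2 and Tcf15 did not pass the test. Meox2 measured 86.4 and 98.0 CPM in the mutant libraries and 110 and 117 in wild type, so the mutant libraries were lower without overlap. Its log2 fold change was -0.32 (SE 0.10, edgeR adjusted p = 0.0732), and the adjusted p was 0.00834 without wild-type replicate 1. Meox1 measured 2.61 and 2.71 CPM in the mutant libraries and 2.24 and 2.70 in wild type, with overlapping groups, and its log2 fold change was 0.09 (SE 0.23, edgeR adjusted p = 0.904).

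Tcf15 measured 1.94 and 1.12 CPM in the mutant libraries and 0.709 and 0.860 in wild type. The mutant libraries lay above the wild-type libraries but far apart from each other. The log2 fold change was 0.95 (SE 0.35, edgeR adjusted p = 0.150), and it was 0.48 when mutant replicate 1 was left out and 1.29 when mutant replicate 2 was. Across the 10 genes, both mutant libraries lay above both wild-type libraries for 6 and below them for 2, and the groups overlapped for 2. Of all genes tested, 26.6% lay above and 22.9% below in this way. The 6 include Gata4, which was not tested, and Foxf1a, which passed the filter on low counts through the mutant libraries. The 6 therefore cannot be set against that share.

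**Figure D2:**
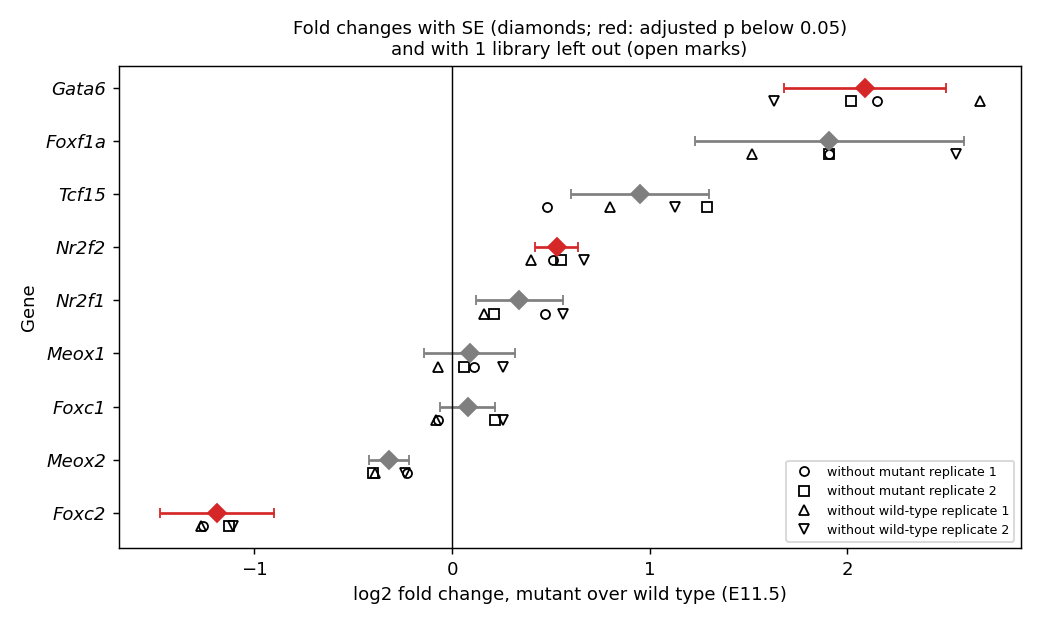
Log2 fold change of mutant over wild type at E11.5 (horizontal axis) for the 9 genes tested (vertical axis). Diamonds with bars are the fit to 4 libraries with its SE, red where the adjusted p is below 0.05, and open marks are fits without 1 library. Gata6 (1.63 to 2.67), Nr2f2 (0.40 to 0.67) and Foxc2 (-1.27 to -1.11) keep to their side of 0. So do Foxf1a, Tcf15, Nr2f1 and Meox2, which did not pass the test, while Foxc1 and Meox1 cross it.

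Against the E10.5 bud, Nr2f1, Tcf15, Gata6, Gata4 and Meox1 were lower in wild-type distal limb at E11.5, and Meox2 was higher. With 1 library at E10.5 there is no test, and a gene counts as higher or lower where it differed at least 2-fold from each of the 2 libraries of a group. By that rule 5 of the 10 genes were higher at E10.5 than in wild type, beside 3.86% of 16738 genes, and 1 was lower, beside 12.9%. Against the mutant 4 were higher, beside 4.13%, and 1 was lower, Foxf1a with 2 reads at E10.5, beside 14.5%. Foxf1a passed the filter on low counts through the mutant libraries, so its count as lower supports nothing. Gata4, among the 5, had 6 and 0 reads in wild type and passed this filter through the E10.5 and mutant libraries. The count of Gata4 as higher thus supports nothing either, and the 5 cannot be set against 3.86%. Leaving out wild-type replicate 1 added Foxc1 to the genes lower than wild type. Against the mutant, Foxc1 joined the lower genes without mutant replicate 2, and Meox2 joined them and Gata4 and Foxc2 joined the higher genes without mutant replicate 1. The comparisons share the E10.5 library, and the first shares its wild-type libraries with the comparison of genotypes. Intervals on E10.5 levels and on ratios of reads below are exact 95% intervals of counting error only.

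Nr2f1 measured 28.8 CPM at E10.5 (27.6 to 29.9), against 2.57 to 4.12 in the 4 E11.5 libraries. The E10.5 level was 11.6-fold that of wild type and 9.10-fold that of the mutant. Nr2f2, in contrast, differed by a log2 value of 0.13 from wild type and -0.40 from the mutant. Per kilobase of exon, Nr2f1 made up 54.2% of the summed level of the pair at E10.5 and between 8.06% and 10.3% at E11.5.

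Tcf15 measured 6.88 CPM at E10.5 (6.33 to 7.46) against 0.709 to 1.94 at E11.5, 9.96-fold over wild type and 5.47-fold over the mutant. Meox1 measured 9.75 CPM (9.10 to 10.4) against 2.24 to 2.71, 4.62-fold over wild type and 4.34-fold over the mutant. Both somite genes were thus well above every E11.5 library. Meox2 went the other way: 37.8 CPM at E10.5 (36.5 to 39.1) against 86.4 to 117 at E11.5, 2.55-fold higher in wild type and 2.04-fold higher in the mutant. Meox1 made up 21.5% of the summed Meox level per kilobase at E10.5 and 2.12% to 3.10% at E11.5.

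Gata6 at E10.5 (2.53 CPM, 2.20 to 2.89) was 9.26-fold over wild type and 2.29-fold over the mutant. Gata4 at E10.5 (0.368 CPM, 0.250 to 0.523) gave a ratio of pooled reads over wild type of 6.20, with an interval of 2.55 to 18.17, and over the mutant of 1.48, with an interval of 0.852 to 2.569. For both GATA genes the mutant libraries lay between the wild-type libraries and the E10.5 library.

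The forkhead genes showed other orders. Foxc1 was lower at E10.5 (9.21 CPM, 8.57 to 9.88) than in all E11.5 libraries (20.5 to 26.6), by log2 differences of -1.06 from wild type and -1.13 from the mutant, but not 2-fold from each library. Foxc2 at E10.5 (1.35 CPM, 1.12 to 1.63) lay between the genotypes, with log2 differences of -0.18 from wild type and 0.98 from the mutant. Foxf1a, with 2 reads at E10.5, had a ratio of 0.0886 to the mutant (interval 0.0102 to 0.350) and of 0.343 to wild type (0.0347 to 1.80).

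**Figure D3:**
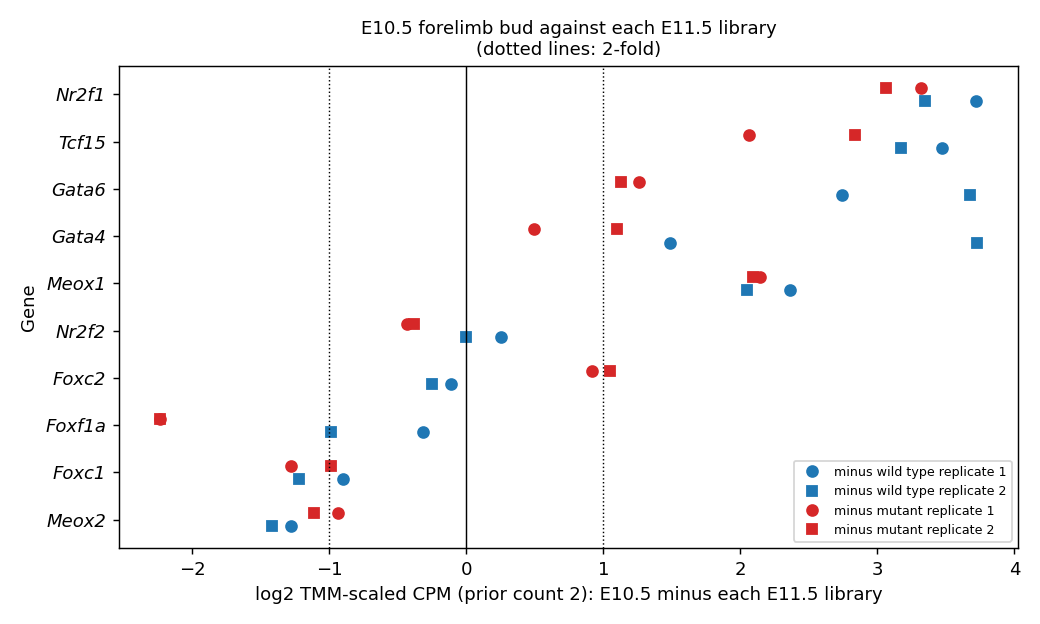
Difference of the E10.5 library from each E11.5 library on the log2 scale of TMM-scaled CPM (prior count 2; horizontal axis) for the 10 genes (vertical axis). Blue marks are wild type and red marks mutant, circles replicate 1 and squares replicate 2, and dotted lines mark 2-fold. Nr2f1 lies between 3.06 and 3.72, and Gata6 between 2.74 and 3.68 against wild type but at 1.26 and 1.13 against the mutant.

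Levels can be ranked between genes only per length of exon. In all 5 libraries Meox2 ranked first, at 16.0 CPM per kilobase at E10.5 and 36.6 to 49.8 at E11.5. At E11.5 Nr2f2 (4.79 to 7.64 per kilobase) came next and Foxc1 (3.52 to 4.55) followed in every library. Meox1 (1 to 1.22) and Tcf15 (0.724 to 1.98) came after them and exchanged places in mutant replicate 1. Foxc2 (0.281 to 0.690) and Nr2f1 (0.505 to 0.809) overlapped in their ranges, with Foxc2 above Nr2f1 in the wild-type libraries and below it in the mutant libraries. Gata6, Gata4 and Foxf1a were the lowest, none above 0.210 per kilobase at E11.5. At E10.5 the order after Meox2 was Tcf15 (7.02), Nr2f1 (5.65), Nr2f2 (4.78) and Meox1 (4.38).

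**Figure D4:**
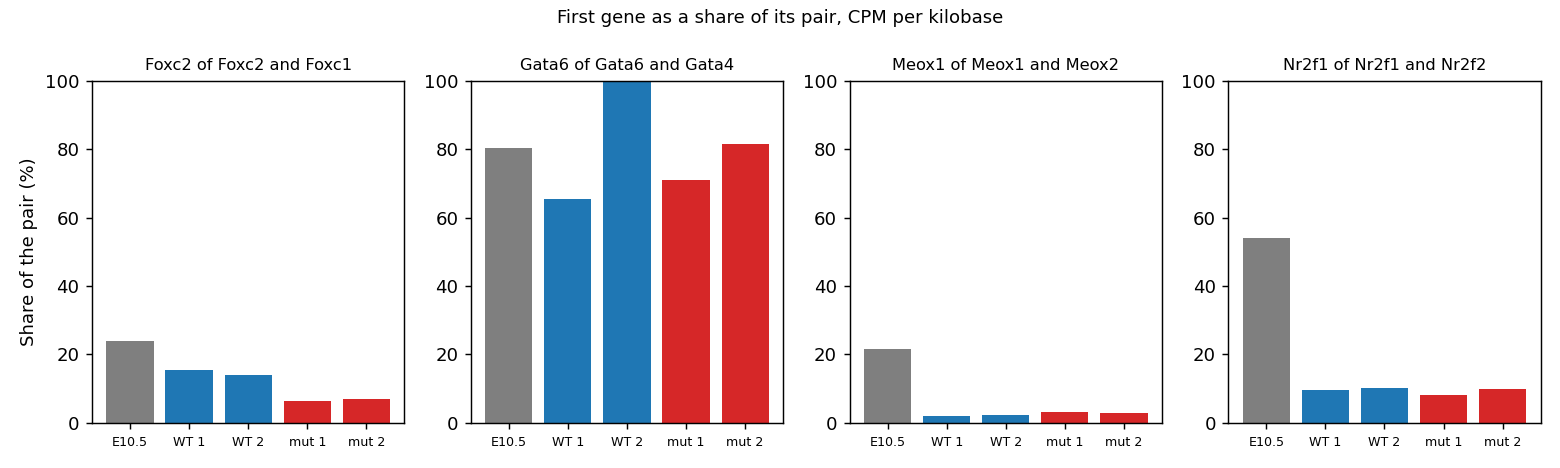
Share of the first gene in the summed level of its pair, in CPM per kilobase of exon (vertical axis, percent), in each of the 5 libraries (horizontal axis; WT is wild type, mut is mutant). Foxc2 has 24.0% at E10.5 and 6.31% and 6.94% in the mutant, Nr2f1 has 54.2% at E10.5 and 8.06% to 10.3% at E11.5, and the Gata6 bar of 100% in wild-type replicate 2 reflects 0 Gata4 reads against 11 Gata6 reads.

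The profiles most like those of the 3 genes past the threshold were sought over the 5 libraries, among 16157 other genes tested. The measure was the Euclidean distance between log2 values centred per gene. For Gata6, whose values spanned 3.68, they were Prtg (distance 0.769), Parvb (0.795) and Rtn4rl1 (0.797). Prtg, which encodes an immunoglobulin superfamily receptor, measured 72.3 CPM at E10.5, 35.8 and 33.2 in the mutant and 14.8 and 11.1 in wild type. For Foxc2 they were Kif27 (0.125), Serpinb6c (0.162) and Kit (0.172), and for Nr2f2 Hebp2 (0.0801), Arhgdib (0.0866) and Gbp4 (0.108). With 5 libraries, whose depth and scaling all profiles share, such likeness is a description only.

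Other genes of the tissues these factors are known from were described from lists, beside 3.82% of all genes tested risen and 3.34% fallen. Of 25 somite and paraxial mesoderm genes 20 were tested, and 0 rose and 2 fell (DESeq2 the same numbers; unadjusted 1 and 2), with a median log2 fold change of 0.04. Nkx3-2, a sclerotome and cartilage factor, fell (-3.70, and -5.62 without mutant replicate 1). The summed level of this list was 203 CPM at E10.5, 194 and 197 in the mutant and 194 and 198 in wild type. Mesp1 and Ripply1, markers of early and segmenting mesoderm, had 0 reads in all 5 libraries. Of the 22 compared with E10.5, 4 were at least 2-fold higher there than in wild type and 7 at least 2-fold lower, beside 3.86% and 12.9% of all genes compared.

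Of 20 genes of lateral plate, flank and coelomic lining 14 were tested, and 0 rose and 1 fell (DESeq2 0 and 1; unadjusted 1 and 2; median -0.10), namely the retinoic acid synthesis gene Aldh1a2 (-0.86). Their summed level was 349 CPM at E10.5, 270 and 264 in the mutant and 304 and 291 in wild type. The mutant sum was thus below the wild-type sum. Aldh1a2, with means of 36.2 CPM in wild type and 20.2 CPM in the mutant, is part of these sums. Tcf21 had 0 reads in all 5 libraries and Nkx2-5 had 0 at E11.5. The part of such tissue in the Gata6, Nr2f1, Tcf15 and Meox1 values was not tested.

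Endothelial markers, set beside Nr2f2 and Foxc2 because both genes act in vessels, summed to 853 CPM at E10.5, 1100 and 984 in the mutant and 1107 and 1069 in wild type. Of 19 tested, 1 rose and 1 fell (median 0.13): the receptor gene Flt1 (0.69) and the transcription factor gene Erg (-0.54). Flt1 had an edgeR adjusted p of 0.344 once mutant replicate 1 was left out and of 0.060 once wild-type replicate 2 was, and Erg one of 0.0745 in the fit lacking mutant replicate 2. Muscle lineage genes, set beside Meox2, summed to 152 CPM at E10.5, 370 and 547 in the mutant and 648 and 560 in wild type, lower in both mutant libraries. In the muscle list 0 rose and 2 fell of 13 tested (DESeq2 0 and 4; unadjusted 0 and 5; median -0.33), among them the cardiac actin gene Actc1 (-0.87). Without mutant replicate 2 the number fallen was 6, without wild-type replicate 1 it was 5, and without mutant replicate 1 the median was -0.08. Genes of neurons and the Schwann cell lineage summed to 38.6 CPM at E10.5, 50.2 and 56.9 in the mutant and 98.5 and 92.2 in wild type. Of those 13, 0 rose and 3 fell (DESeq2 0 and 3; unadjusted 1 and 5; median -0.23), namely Tubb3 (-1.54), Ngfr (-1.32) and Stmn2 (-1.57). The part of vessels, muscle and nerve in the Nr2f2, Foxc2 and Meox2 values was not tested.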

How the data were processed

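The deposited values were whole-number read counts for each gene symbol, which the authors obtained with HTSeq. Per the submitters' processing notes, TopHat2 2.0.13, Cufflinks 2.1.1, SAMtools and the mm9 genome were used. The HTSeq annotation and strand setting are not given in the sources used here. The 5 HTSeq total lines were left out. Reads in no feature were 24.3% to 39.6% of each table's sum.

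In edgeR 4.0.16 (R 4.3.3), the counts of the 4 E11.5 libraries passed filterByExpr at a minimum count of 10 and a minimum total of 15. TMM scaling and a quasi-likelihood test of genotype, the only term, followed. The SE is the log2 fold change divided by the root of F. CPM are counts per 1000000 reads in genes, not TMM-scaled. Fold values at E10.5 use log2 CPM after TMM scaling, at prior count 2. Alternatives included DESeq2 1.42.0. Exon lengths and overlaps came from GENCODE on GRCm38, used for names, lengths and neighbours. On simulated counts, 95% of 100 genes changed 2-fold (log2 of 1) were recovered among 16127 tested, and 13 unchanged genes were called. The changed genes were drawn from those with a mean of at least 1 CPM, and every gene was given the same dispersion. Gata6, Gata4 and Foxf1a lay below that mean, so the 95% says nothing of them. The 2 libraries of each genotype differed beyond sampling noise. P-values weigh the genotype difference against the spread between tissue pools, which is estimated from 2 pools per genotype with sharing across genes.

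The genes and lists were chosen with earlier results of these data known. Named were all 10 genes, the up to 3 called genes of smallest adjusted p in each list, Shh, the targeted genes, and the 3 most alike genes per called gene. A called gene of the somite and muscle lists is not reported here. No sequence is given for Gata6.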

Additional observations from a re-analysis of the deposited data

How the results depend on the processing

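The numbers of genes risen stayed at 2 (Gata6 and Nr2f2) in 8 of 10 alternative fits and were 3 with no filter on low counts (with Tcf15, adjusted p = 0.0499) and 3 without wild-type replicate 1 (with Gata4, which entered that fit through its mutant reads, against 0 in the wild-type library left). The number fallen, 1 in the main edgeR fit, was 2 with no filter (with Meox2, edgeR adjusted p = 0.0251) and 0 with DESeq2. At an unadjusted p below 0.05, 2 fell with edgeR and 2 with DESeq2. With 1 library left out, the log2 fold change of Foxc2 ranged from -1.27 to -1.11. Over all genes, 959 rose with no filter in place of 617, and with 1 library left out 410 to 1113 rose and 373 to 905 fell. With 1 library left out, the log2 fold change of Foxc1 ranged from -0.08 to 0.26 and that of Meox1 from -0.07 to 0.26; Foxc1 was -0.07 without mutant replicate 1. At E10.5, with 1 library left out, 1 to 2 genes were lower than wild type and 2 lower than the mutant, and 646 of all genes higher than wild type became 858 to 985. Foxf1a differed from the mutant by -2.89 at a prior count of 0.5 and -1.60 at 5. The causes were not tested. No label says that replicate numbers mark shared litters, and the correlation of same-numbered deviations was -0.0775. With the replicate block 2 genes rose and 1 fell, now Meox2 (0.0327) in place of Foxc2 (0.0516). With 2 to 31 reads per group, Gata4 and Foxf1a are limited by depth.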
